A study of Homo sapiens with 5 samples.

Results

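PHF8 binding was examined at the promoters of 10 genes of angiogenesis and of the response to low oxygen (VEGFA, VEGFB, VEGFC, KDR, FLT1, NRP1, NRP2, HIF1A, EPAS1 and VHL), taken by gene symbol. A gene was counted as bound when a PHF8 peak came within 1 kb, in either direction, of any of its annotated transcription start sites (TSSs) in all 3 replicates. The 10 genes belong to 20157 annotated protein-coding genes and have 83 of the 146470 distinct TSSs of such genes. Of the 10 genes, 8 were bound in every replicate, whereas the receptor genes KDR and FLT1 had no peak in any replicate. Among all protein-coding genes, 60.2% were bound.

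Chromatin from SKMEL-147, a long-established human melanoma line, was immunoprecipitated with an antibody to PHF8 and sequenced (ChIP-seq), with no treatment named in the labels. The series holds 5 samples, namely ChIP replicates A, B1 and B2 and the input libraries A and B. The inputs enter the values below only through the peak caller. Nothing in the labels states that the replicates came from separate cultures, so SDs may reflect technical spread, and with a single group no comparison between conditions and no test was possible.

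PHF8 is a histone demethylase that reads a methyl mark of active promoters and removes methyl groups linked to silencing. Vascular endothelial growth factors (VEGFs) are secreted ligands that drive the growth of blood and lymph vessels through receptor tyrosine kinases and the neuropilin co-receptors. Hypoxia-inducible factors (HIFs) are transcription factors that switch on VEGFA and other genes when oxygen is low, and the VHL protein marks their alpha subunits for degradation when oxygen is present.

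The peak lists of replicates A, B1 and B2 numbered 21506, 20882 and 20120 peaks, and 16541 genes of any type were bound in all 3 and are called targets below. Fold enrichment, the ratio of ChIP fragments to the background estimated by the peak caller, ran higher in A, so that the strongest promoter peak of a target had a median of 32.4, 18.8 and 17.7 in replicates A, B1 and B2. Values were therefore ranked within each replicate, and a percentile gives the rank among all targets, from 0 for the weakest to 100 for the strongest. The total number of reads per library is not used here and depth is given as the count of immunoprecipitated fragments under a summit, which was recovered from fold enrichment and p-value. The fewest fragments at a called summit were 8, 8 and 10, and weaker binding was not detectable at this depth.

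The starts of these genes ranged from rich to poor in CpG dinucleotides, and sequences from both ends of that range are given first (hg19, read in the direction of transcription, CpGs in capitals). The opening 3 are the 150 bases directly upstream of the reference TSS (the start of the canonical transcript in the annotation) of bound genes, namely VHL (chr3:10183312-10183461, plus strand, 23 CpGs), HIF1A (chr14:62162081-62162230, plus strand, 21) and EPAS1 (chr2:46524396-46524545, plus strand, 25).
VHL: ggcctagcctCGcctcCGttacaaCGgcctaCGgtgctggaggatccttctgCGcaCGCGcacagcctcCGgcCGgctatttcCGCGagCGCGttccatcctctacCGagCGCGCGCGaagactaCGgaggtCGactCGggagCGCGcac
HIF1A: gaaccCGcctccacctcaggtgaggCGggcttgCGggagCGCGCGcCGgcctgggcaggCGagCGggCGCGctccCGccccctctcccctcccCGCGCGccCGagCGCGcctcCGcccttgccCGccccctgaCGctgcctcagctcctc
EPAS1: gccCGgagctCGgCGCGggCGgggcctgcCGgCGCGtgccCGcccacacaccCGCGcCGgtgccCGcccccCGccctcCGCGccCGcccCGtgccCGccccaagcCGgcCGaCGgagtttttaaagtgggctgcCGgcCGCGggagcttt
The fourth is from the bound gene NRP2, upstream of its first TSS (chr2:206546564-206546713, plus strand). It had the fewest CpGs of the windows read upstream of bound TSSs (13). A window upstream of a bound TSS need not itself lie under a peak.
NRP2: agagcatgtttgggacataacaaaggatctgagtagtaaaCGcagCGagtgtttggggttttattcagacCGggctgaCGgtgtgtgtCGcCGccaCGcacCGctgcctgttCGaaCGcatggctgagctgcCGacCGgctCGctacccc
The next pair lies upstream of the first TSS of the unbound genes KDR (chr4:55991763-55991912, minus strand, 15 CpGs) and FLT1 (chr13:29069283-29069432, minus strand, 8).
KDR: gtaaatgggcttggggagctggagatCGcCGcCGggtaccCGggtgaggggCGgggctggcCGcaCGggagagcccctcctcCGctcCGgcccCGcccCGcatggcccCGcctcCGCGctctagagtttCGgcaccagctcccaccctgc
FLT1: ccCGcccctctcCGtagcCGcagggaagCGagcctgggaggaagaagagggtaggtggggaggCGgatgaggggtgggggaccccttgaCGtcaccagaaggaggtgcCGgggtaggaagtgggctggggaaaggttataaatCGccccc
The windows of the bound genes VEGFB, NRP1 and VEGFC, which are not printed, held 18, 15 and 14 CpGs, so the count at KDR was within the range of bound genes.
The last 3 are CpG-poor. They are the 150 bases upstream of the outermost TSS of EPAS1, which was unbound (chr2:46520656-46520805, plus strand, 2 CpGs), and the 121 bases around the middle summit of the only regions away from any TSS that were bound in all replicates in or near these genes, 1 in an intron of EPAS1 (chr2:46542561-46542681, plus strand, 1 CpG) and 1 in an intron of NRP2 (chr2:206571811-206571931, plus strand, 0 CpGs).
EPAS1 outermost start: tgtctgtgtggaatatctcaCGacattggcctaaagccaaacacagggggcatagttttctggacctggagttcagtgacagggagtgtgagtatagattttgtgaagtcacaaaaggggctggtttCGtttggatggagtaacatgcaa
EPAS1 intron: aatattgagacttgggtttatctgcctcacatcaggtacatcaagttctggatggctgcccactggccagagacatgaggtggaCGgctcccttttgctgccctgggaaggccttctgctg
NRP2 intron: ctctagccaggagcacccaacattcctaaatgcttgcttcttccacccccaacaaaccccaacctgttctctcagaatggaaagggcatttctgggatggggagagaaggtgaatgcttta

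Among the ligands, VEGFA (ENSG00000112715, chr6:43737921-43754224, plus strand), the main ligand of blood vessel growth, had low but wide binding. Its strongest promoter peak had a fold enrichment of 10.6, 12.6 and 13.1 in replicates A, B1 and B2, and the summits held 45 fragments (95% exact Poisson interval 32.8 to 60.2), 36 (25.2 to 49.8) and 39 (27.7 to 53.3). These intervals, here and below, cover counting error only. In A the strongest summit lay 124 bp downstream of the reference TSS, in an untranslated exon, but in the B replicates it lay 260 bp (B1) and 268 bp (B2) upstream. The position of the highest point thus differed between A and the B replicates.

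VEGFA had 15 distinct TSSs from 26 transcripts, the most transcripts of the 10 genes. The 11 TSSs between 43737921 and 43739729 were bound in all replicates. The TSS at 43740909 had a peak in A and B1 but none in B2, and the TSSs at 43742090, 43745457 and 43745909 had none. Its promoter peaks numbered 3, 4 and 4 in the respective replicates and together covered 2304, 2210 and 2096 bp. That extent placed VEGFA at a mean percentile of 97.5 ± 0.125 of covered bases (SD, n = 3), whereas the height of the strongest peak was at a mean percentile of 20.3 ± 12.9. A peak of VEGFA also met the window of the lncRNA gene ENSG00000272114, whose TSS lies 91 bp from one of VEGFA on the opposite strand.

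VEGFB (ENSG00000173511, chr11:64002056-64006736, plus strand), a ligand of FLT1, was bound at 1 of its 3 TSSs. Fold enrichment was 21.9, 12.6 and 10.8 in replicates A, B1 and B2, with 65 (50.2 to 82.8), 36 (25.2 to 49.8) and 32 (21.9 to 45.2) fragments. The summits fell in an intron, 352, 397 and 347 bp downstream of the TSS, so their positions varied by far less than those of VEGFA. The TSSs at 64004599 and 64005008 had no peak. B2 had a further peak of 8.87 with its summit 375 bp upstream. In every replicate, promoter peaks of VEGFB met TSS windows of DNAJC4, a co-chaperone gene on the same strand 1092 bp away. They also met those of the lncRNA gene ENSG00000256116 on the opposite strand 232 bp away, so the binding cannot be assigned to 1 of these genes.

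VEGFC (ENSG00000150630, chr4:177604689-177714076, minus strand), the main ligand of lymphatic vessel growth, had the lowest mean rank of the bound genes. Fold enrichment was 12.9, 6.48 and 7.23 in replicates A, B1 and B2, with 32 (21.9 to 45.2), 18 (10.7 to 28.4) and 21 (13.0 to 32.1) fragments. All summits lay in an untranslated exon, 199, 253 and 249 bp downstream of the TSS at 177714076. A second TSS at 177650746, 63330 bp into the gene, had no peak. No other gene had a TSS window at these peaks.

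Of the receptors, KDR and FLT1 stood apart from the neuropilins. KDR (ENSG00000128052, chr4:55944648-55991762, minus strand), the principal signalling receptor of VEGFA, has 4 TSSs, and FLT1 (ENSG00000102755, chr13:28874483-29069282, minus strand), a receptor that also acts as a decoy, has 7. None of these 11 TSSs had a peak in A, B1 or B2, and no peak of any kind was listed inside either gene or within 50 kb of it. The nearest summit to the reference TSS of KDR was 50409, 50463 and 50672 bp away in replicates A, B1 and B2. For FLT1 these distances were 164158, 164134 and 164153 bp. The absence was therefore the same in all replicates and held for TSS windows of up to 50 kb.

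NRP1 (ENSG00000099250, chr10:33466420-33625190, minus strand), a co-receptor for VEGFs and semaphorins, had the highest mean percentile of covered bases of the 10 genes but a low peak. In A a single peak of 2807 bp was enriched 13.0-fold with 38 fragments (26.9 to 52.2) at its summit. In B1 the same stretch was split into 3 peaks of 10.2, 6.76 and 5.47, and in B2 into 4 peaks of 5.18, 6.64, 6.23 and 6.64. The bases covered were 2807, 2193 and 2413 bp, below VEGFA in B1 alone, at a mean percentile of 98.5 ± 0.848, and the height was at 10.9 ± 5.20. All 8 TSSs between 33623310 and 33625190 were bound, and the 5 internal TSSs, which lie from 70963 to 149012 bp downstream of the reference TSS, had no peak.

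NRP2 (ENSG00000118257, chr2:206546714-206662857, plus strand), the related co-receptor that also binds VEGFC, was bound at a pair of separate start regions. At the outer one, which holds 7 TSSs, fold enrichment was 36.6, 19.0 and 16.3 in replicates A, B1 and B2, with 93 (75.1 to 114), 56 (42.3 to 72.7) and 50 (37.1 to 65.9) fragments. At the inner one, the single TSS at 206550517, it was 6.98, 7.34 and 7.09, with 20, 22 and 22 fragments, and A had a further peak of 5.78 there. The outer peak fell in the same order of replicates as the median target, while the inner peak was nearly equal in all of them. The 7 TSSs further into the gene, from 39764 to 81836 bp downstream of the reference TSS, had no peak. NRP2 reached a mean percentile of 51.7 ± 8.42 in height and 96.1 ± 1.51 in covered bases.

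HIF1A (ENSG00000100644, chr14:62162231-62214977, plus strand), the alpha subunit of the classical hypoxia factor, was bound at 3 of its 9 TSSs. Fold enrichment was 21.5, 16.3 and 13.0 in replicates A, B1 and B2, with 67 (51.9 to 85.1), 57 (43.2 to 73.9) and 58 (44 to 75) fragments. These summits lay in an untranslated exon, 161, 140 and 179 bp downstream of the reference TSS. A separate peak stood upstream in every replicate, with summits 423, 459 and 431 bp before the TSS and a fold enrichment of 13.4, 7.32 and 7.64. The promoter thus carried a peak on each side of its start, the downstream one being higher in all 3 replicates, and B2 had a further peak of 3.07 downstream. The 6 remaining TSSs had no peak, including the TSS at 62164340, which starts a protein-coding transcript 2109 bp downstream. HIF1A-AS1, an antisense lncRNA gene whose TSS lies 115 bp from one of HIF1A, shares these peaks.

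EPAS1 (ENSG00000116016, chr2:46520806-46613836, plus strand), which encodes the other main alpha subunit, showed the same arrangement with more equal sides. The downstream peak had a fold enrichment of 20, 10.6 and 7.48 in replicates A, B1 and B2, with summits 123, 121 and 78 bp after the reference TSS at 46524546. The upstream peak had 19.3, 9.34 and 10.5, with summits 361, 332 and 335 bp before it. By fold enrichment the downstream side was higher in A and B1 and the upstream side in B2, so neither side was higher throughout. In A the upstream summit held more fragments than the downstream one (57 against 52). The strongest summits carried 52 (38.8 to 68.2), 33 (22.7 to 46.3) and 34 (23.5 to 47.5) fragments.

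The choice of TSS decided the call for EPAS1 alone among the 10 genes. The outermost TSS of the gene record, 46520806, lies 3740 bp upstream of the reference TSS and had no peak within 1 kb in any replicate. The TSSs at 46523747, 46524546 and 46524903 were bound in all replicates, and 6 internal TSSs were not. Counting only the 5′ end of each gene record left 7 of the 10 genes bound, against 54.0% of all protein-coding genes.

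VHL (ENSG00000134086, chr3:10183462-10195351, plus strand), the substrate receptor of the ubiquitin ligase that removes the alpha subunits, had the highest peak of the 10 genes. Fold enrichment was 56.3, 30.5 and 28 in replicates A, B1 and B2, with 160 (136 to 187), 110 (90.4 to 133) and 105 (85.9 to 127) fragments. The summits fell in the coding part of an exon, 163, 165 and 181 bp downstream of the reference TSS. All 5 TSSs were bound in all replicates, and VHL was the only member with no unbound TSS. The binding was tall and narrow, with 669, 827 and 751 bp covered, at mean percentiles of 89.6 ± 4.16 in height and 29.5 ± 10.4 in covered bases. A snoRNA gene, snoU13, has its TSS 628 bp from one of VHL and shares the peak.

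**Figure D1:**
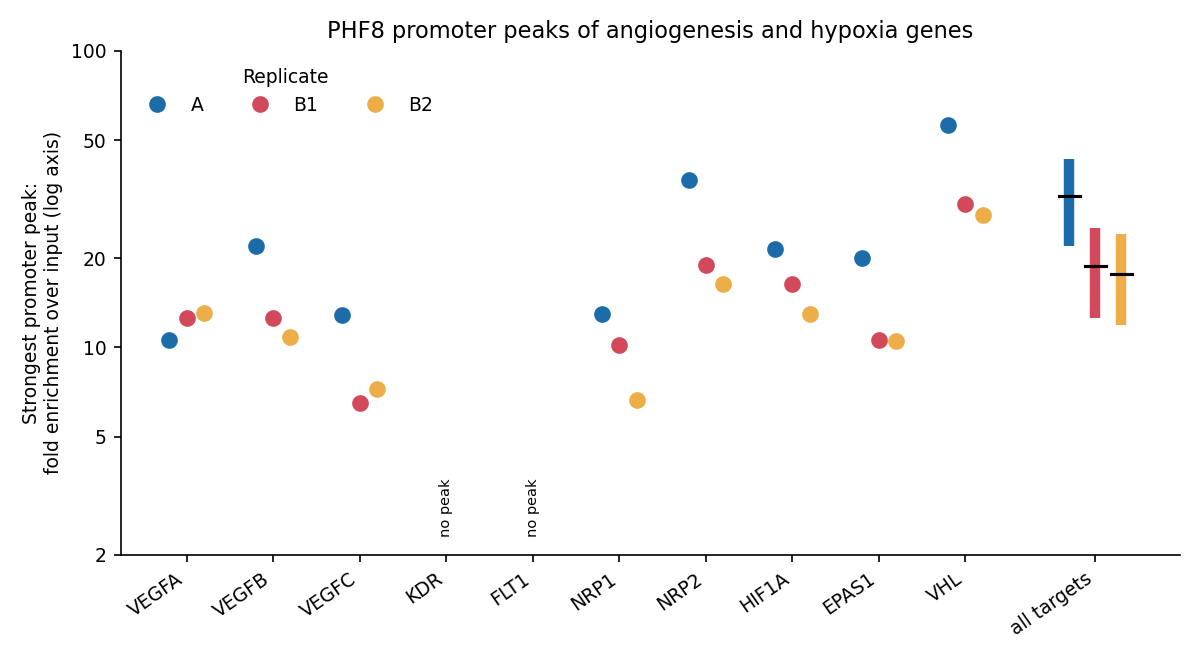
Fold enrichment over input of the strongest promoter peak of each gene (log axis), with 1 point per replicate in blue (A), red (B1) and yellow (B2). Bars on the right span the quartiles of all targets in each replicate with the median as a black line; VHL lies above these bars in all replicates, with 56.3, 30.5 and 28, and KDR and FLT1 have no peak.

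In the order of mean height percentile, VHL (89.6 ± 4.16) was followed by NRP2 (51.7 ± 8.42), HIF1A (31.1 ± 8.20), VEGFB (23.5 ± 2.49), VEGFA (20.3 ± 12.9), EPAS1 (19.5 ± 1.37), NRP1 (10.9 ± 5.20) and VEGFC (7.67 ± 1.83). A neighbouring pair was taken to differ when the mean difference exceeded its SD over replicates and had the same sign in all of them. VHL lay above NRP2 by 37.9 ± 4.48, NRP2 above HIF1A by 20.6 ± 14.0, and EPAS1 above NRP1 by 8.65 ± 6.06. With recovered fragments ranked in place of fold enrichment, NRP2 (42.7) and HIF1A (39.3) lay closer together. HIF1A and VEGFB, VEGFB and VEGFA, VEGFA and EPAS1, and NRP1 and VEGFC did not differ beyond their spread. The median over the 8 bound genes was 21.9, and 6 of the 8 means were below the median target. VHL was above it in every replicate, whereas NRP2 was below it in B2, and its mean was 42.7 with recovered fragments, 49.4 with protein-coding targets as the scale and 47.4 without A.

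The strongest summit lay downstream of the reference TSS at 6 (A), 5 (B1) and 4 (B2) of the 8 bound genes, and over protein-coding targets this share was 69.7%, 69.3% and 70.0%. More than 1 promoter peak was listed for 4 (A), 5 (B1) and 7 (B2) of the 8, against 45.2%, 48.4% and 47.7% of these targets. B2 thus had the most divided peaks among the members, which the targets at large did not show.

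Height and extent ranked the genes differently. VEGFA, NRP1 and NRP2 had mean percentiles of covered bases above 95, a level chosen after the values were seen, which 726 of the 16541 targets exceeded. The median height percentile of those 726 targets was 62.8, with quartiles of 40.8 and 80.7. VEGFA at 20.3 and NRP1 at 10.9 were below the lower quartile, and NRP2 at 51.7 was between the quartiles. For NRP2 the covered bases were the sum over its separate start regions, and their percentile was 94.7 in B1. Its strongest peak alone was 983, 988 and 816 bp wide in replicates A, B1 and B2. All promoter peaks of the median target covered 1008, 950 and 914 bp. Targets above the level of 95 had a median of 9 TSSs, against 6 over all targets. More TSSs give a wider search window, and whether this accounts for the covered bases was not tested. VEGFA has 15 TSSs, NRP1 13 and NRP2 15, of which 11, 8 and 8 were bound in all replicates.

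**Figure D2:**
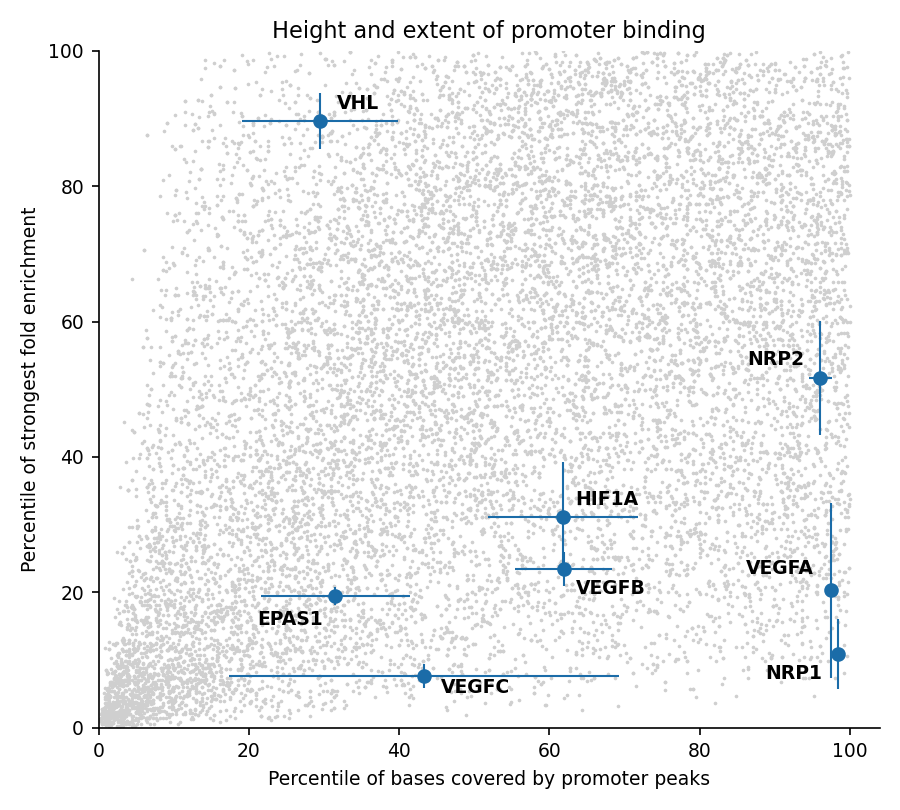
Mean percentile of the strongest fold enrichment (vertical axis) against the mean percentile of bases covered by promoter peaks (horizontal axis) for the 8 bound genes in blue, with SD bars over 3 replicates, and for all 16541 targets in grey. VHL is tall and narrow (89.6 and 29.5), while NRP1 and VEGFA are low and wide (10.9 and 98.5, 20.3 and 97.5).

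By alternative TSS, 40 of the 83 TSSs (48.2%) had a peak in all 3 replicates, 1 had a peak in some replicates and 42 had none, against 44.7% bound over all TSSs of protein-coding genes. TSSs of 1 gene share peaks where their windows overlap, so they were also grouped into 39 start regions, in which neighbouring TSSs lie at most 2 kb apart. Of these, 9 regions held a bound TSS, 1 for each bound gene and a second for NRP2. Unbound TSSs were found in 7 of the 8 bound genes, and 81.2% of protein-coding targets with several TSSs also had an unbound TSS. Of the 43 TSSs of the members that start a protein-coding transcript, 32 (74.4%) were bound, and of the 40 that start only other transcripts, 8 (20%) were. Over all TSSs of protein-coding genes these shares were 53.9% and 34.1%.

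**Figure D3:**
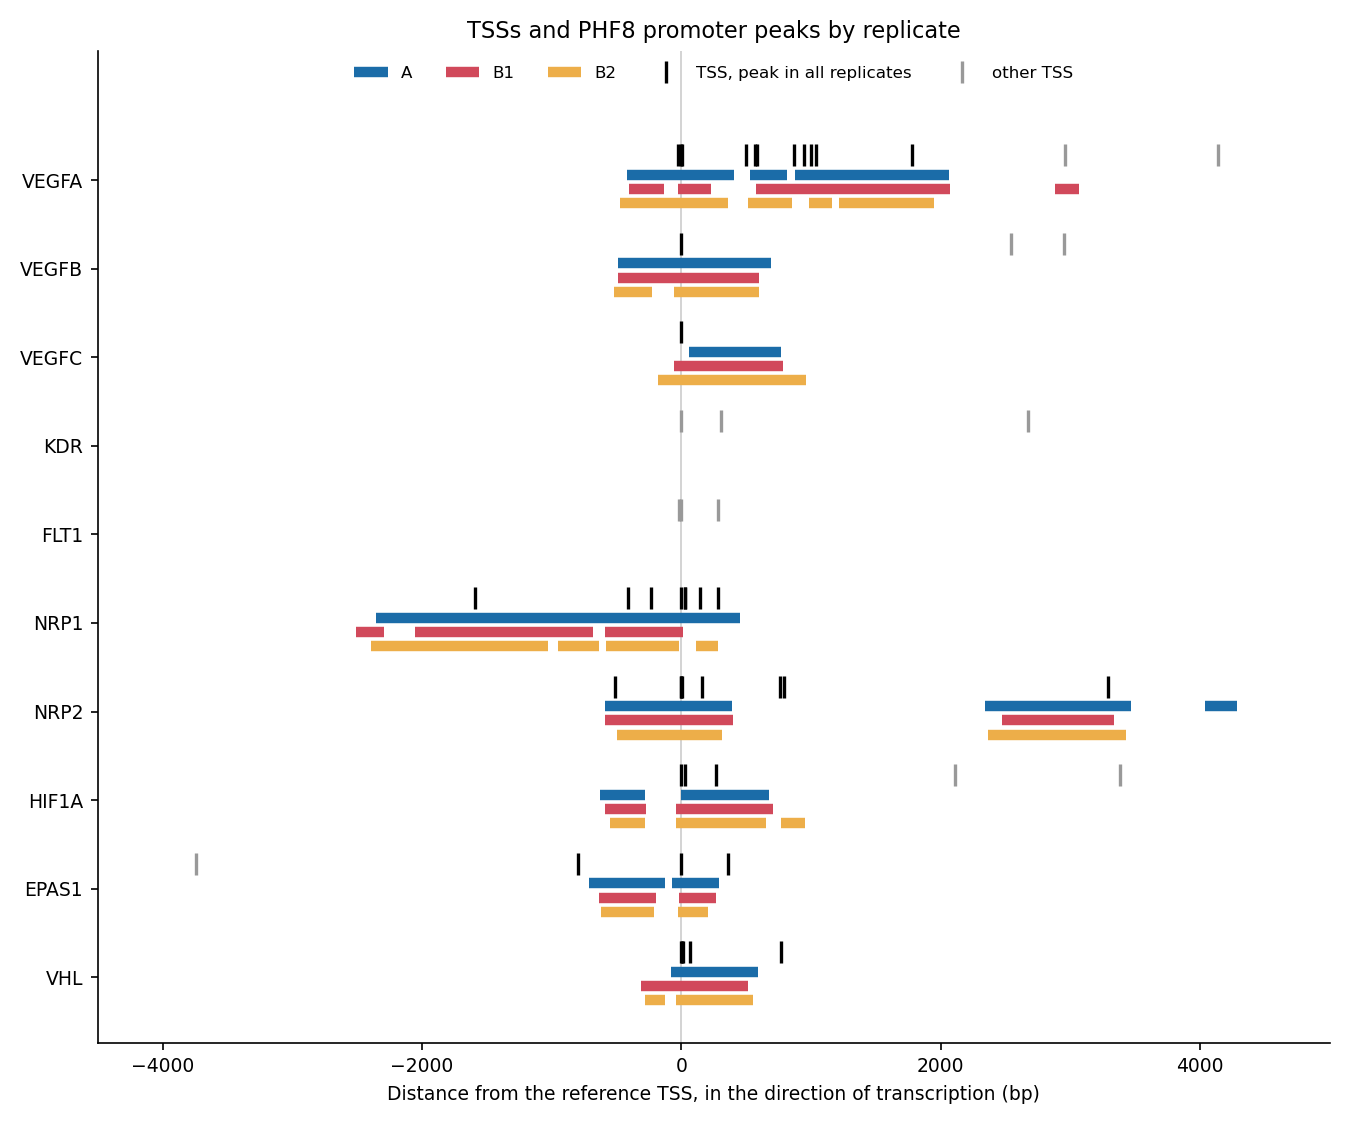
Promoter peaks of A (blue), B1 (red) and B2 (yellow) as bars and annotated TSSs as ticks, by distance in bp from the reference TSS in the direction of transcription. Black ticks mark TSSs with a peak in all replicates and grey ticks the others, and TSSs further downstream are outside the plot; peaks of VEGFA and NRP1 cover 2096 to 2807 bp, HIF1A and EPAS1 have a peak on each side of the start, and KDR and FLT1 have none.

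Base composition was then compared over all 83 TSSs of the members. A TSS was called CpG-island-like when the 501 bp centred on it had at least 50% GC and at least 0.6 of the CpGs that its base counts predict (the observed over expected ratio). Of the 44 TSSs of this kind, 38 (86.4%) were bound, and of the 39 others, 2 (5.13%) were. The corresponding shares over all protein-coding genes were 84.0% and 11.2%. The 2 exceptions were the NRP2 TSSs at 206547984 and 206548015, which lie within 1 kb of the outer NRP2 peak. The members therefore followed the split seen over the genome.

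In terms of start regions, 12 held a CpG-island-like TSS and 9 of those were bound, against 74.0% over protein-coding genes. None of the 27 start regions without such a TSS was bound, against 2.37%. The 3 unbound regions of the first kind were the outer starts of KDR and FLT1 and an internal region of NRP2 at 206628459 to 206629061, where 1 TSS just passed the limit with a ratio of 0.601. At the KDR reference TSS the GC content was 67.3%, the ratio 0.778 and the number of CpGs 44. At the FLT1 reference TSS these were 75.6%, 0.919 and 65. For comparison, the bound reference TSS of VHL had 66.3%, 1.20 and 65, and that of HIF1A had 71.3%, 0.776 and 49. Every one of the 10 genes had at least 1 CpG-island-like TSS, and of all protein-coding genes with such a TSS 79.5% were bound, close to the 8 of 10 found here.

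**Figure D4:**
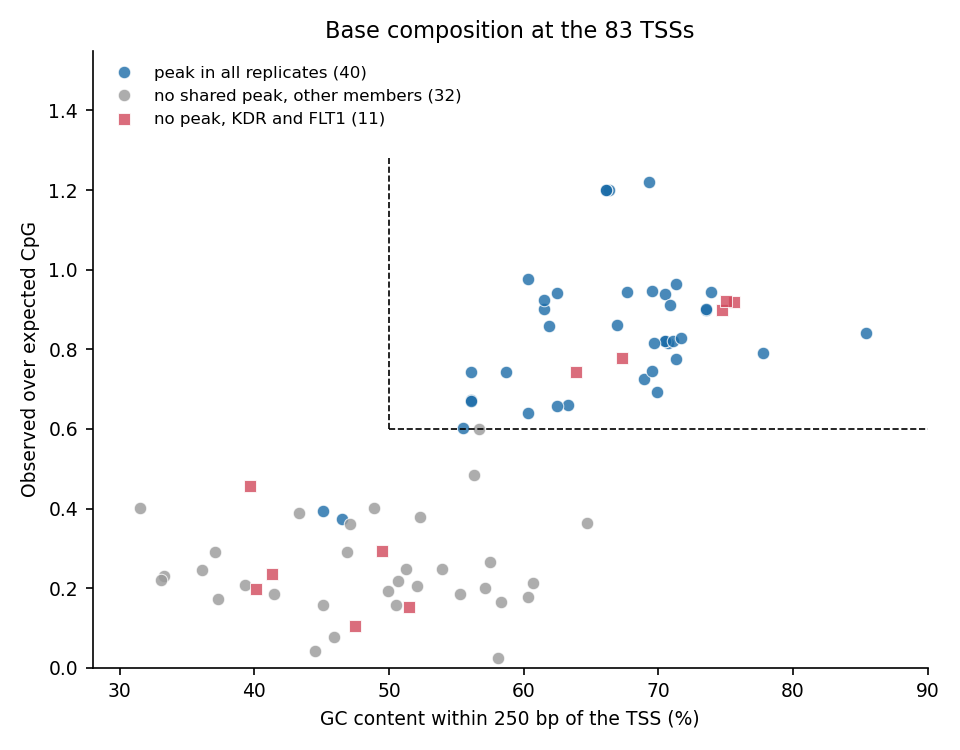
GC content within 250 bp of each TSS (horizontal axis, %) and observed over expected CpG ratio (vertical axis) at the 83 TSSs, in blue for a peak in all replicates (40), in grey for other TSSs of bound genes (32) and as red squares for KDR and FLT1 (11). The dashed lines mark the CpG-island-like range, which holds 38 of the 40 bound TSSs and 5 TSSs of KDR and FLT1.

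The core letters of the HIF binding site were searched on both strands of the same 501 bp windows. ACGTG was present at 21 of the 83 member TSSs, and 31.2% of all TSSs of protein-coding genes and 38.1% of the CpG-island-like ones held it. Of those 21, 12 (57.1%) were bound, against 53.9% of all TSSs with these letters. GCGTG, the other common form, was present at 41 of the 83, and at 50.0% and 71.4% of the same sets. Of those 41, 29 (70.7%) were bound, against 60.8% of all TSSs with these letters. Both forms share their last 4 letters, a window can hold both, and a match describes the letters only.

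Away from TSSs, in or within 50 kb of the 10 genes, 2 regions had a peak in all replicates, both in introns. The EPAS1 region (chr2:46542435-46542976) lay 18075 bp downstream of the reference TSS and 17718 bp from the nearest TSS of any gene, with a fold enrichment of 9.19, 6.47 and 4.59 in replicates A, B1 and B2 and 29, 22 and 24 fragments. The NRP2 region (chr2:206571724-206571954) lay 24646 bp downstream of its reference TSS, with 3.53, 3.94 and 5.04 and 12, 13 and 15 fragments. Both were weaker than the promoter peak of the same gene in every replicate. Their CpG ratios were 0.214 and 0.221.

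By the strongest promoter peak, replicate A had the higher fold enrichment at 7 of the 8 bound genes, and VEGFA was the exception. Over all targets the median log2 ratio of A to the mean of B1 and B2 was 0.80, and only 2.41% of targets had a ratio below 0. For VEGFA it was -0.28, at percentile 0.550 of all targets, and for the other 7 genes it ran from 0.55 for HIF1A to 1.06 for NRP2. The VEGFA ratio compared different positions. Its strongest summit lay 124 bp downstream of the reference TSS in A but 260 bp (B1) and 268 bp (B2) upstream. B1 also had a summit 97 bp downstream, where fold enrichment was lower than the 10.6 of A, and B2 had no separate summit there. A ratio at matched positions was not computed. In recovered fragments at the same strongest summits VEGFA was higher in A, with a log2 ratio of 0.26 at percentile 10.0, against a median of 0.58. The background was 3.35 fragments at the downstream VEGFA summit of A, above the genome-wide value of 1.567. At the upstream summits of B1 and B2 it was at the genome-wide values of 1.93 and 2.04. These backgrounds were thus also read at different positions. B1 and B2 share a letter with each other and with 1 input, and replicate and input cannot be told apart here.

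The other genes of the pathway were counted in the same way. Of 44 such genes, 29 (65.9%) were bound, against 60.2% of protein-coding genes. Of the 35 with a CpG-island-like TSS, 28 (80.0%) were bound, and of the 9 without, 1 (11.1%), namely ADM, which encodes the vasodilator peptide adrenomedullin. Over protein-coding genes these shares were 79.5% and 9.59%. Both shares with a CpG-island-like TSS were nearly equal.

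None of the 3 remaining VEGF family genes was bound in all replicates, against 60.2% of protein-coding genes. PGF and FLT4 have a CpG-island-like TSS and VEGFD has none. Over protein-coding genes 79.5% with such a TSS were bound and 9.59% without. PGF, a ligand of FLT1, was enriched 12.9-fold in A and 5.08-fold in B1 and had no peak in B2. VEGFD, a ligand of lymphatic vessels, and FLT4, its receptor, had no promoter peak. The angiopoietin and TIE genes, a second ligand and receptor system of vessels, were likewise without a promoter peak in any replicate (0 of 5, ANGPT1, ANGPT2, ANGPT4, TEK and TIE1). None of these 5 genes has a CpG-island-like TSS, a class of which 9.59% was bound over the genome.

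Of the 8 semaphorin and plexin genes, which encode other partners of the neuropilins, 5 (62.5%) were bound, with a median percentile of 8.66. Over protein-coding genes 60.2% were bound, and 79.5% of those with a CpG-island-like TSS, which all but SEMA3A have. PLXNA1 was the strongest with 32.5, 14.1 and 20.9 in replicates A, B1 and B2 (percentile 48.0 ± 15.9), and PLXNA2 the weakest with 9.61, 4.33 and 4.37 (2.09 ± 2.14). SEMA3A had no peak, and SEMA3F (7.49) and PLXND1 (6.69) had one in A only. The mean percentiles of the bound genes thus ran from 2.09 to 48.0, below the median target. PLXNA1 was nonetheless above the median fold enrichment of targets in A (32.4) and B2 (17.7).

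The bound genes among the other HIF subunits and the HIF hydroxylases were higher. Of 7 HIF subunit and hydroxylase genes 5 (71.4%) were bound, with a median percentile of 79.6. All 7 have a CpG-island-like TSS, and 79.5% of protein-coding genes with one were bound. HIF1AN, the asparaginyl hydroxylase that blocks HIF activity, was the strongest with 54.0, 34.4 and 39.1 (94.9 ± 3.21), and ARNT, the shared partner subunit, was the weakest with 46.0, 24.1 and 24.2 (75.6 ± 5.00). All the prolyl hydroxylase genes of the list (EGLN1, EGLN2 and EGLN3) were bound, at mean percentiles of 79.6 ± 14.4, 78.1 ± 8.18 and 79.7 ± 8.39. HIF3A had no peak, and ARNT2 had one in A (6.47) and B2 (5.07) but none in B1.

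All 4 genes for partners of VHL in its ligase were bound, with a median percentile of 63.1. Each has a CpG-island-like TSS, and 79.5% of protein-coding genes with one were bound. RBX1, the RING subunit, was the strongest with 42.9, 32.1 and 27.0 (83.3 ± 8.16), and ELOC, an adaptor subunit, the weakest with 30.0, 18.8 and 23.7 (55.8 ± 15.4). The mean percentile of VHL, 89.6, was above those of its 4 partners. In B1, however, RBX1 had a higher fold enrichment than VHL (32.1 against 30.5), so these 2 genes did not keep 1 order in all replicates. The means of the 4 partners were all above 50, although ELOB in B1 (15.2) and ELOC in A (30.0) had a fold enrichment below the median target. HIF1A at 31.1 and EPAS1 at 19.5 lay below every bound gene of the list of other HIF subunits and hydroxylases.

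Of 17 HIF target genes, 15 (88.2%) were bound, with a median percentile of 50.1 and a wide range. All but ADM and EPO have a CpG-island-like TSS, and 79.5% of protein-coding genes with one were bound. BNIP3, a mitophagy receptor gene, was the strongest with 57.3, 39.1 and 32.5 (95.3 ± 2.12), and DDIT4, a stress-induced inhibitor of mTOR signalling, was the weakest with 15.3, 9.65 and 7.09 (12 ± 3.64). CA9, a carbonic anhydrase induced by hypoxia, and EPO, the kidney hormone erythropoietin, had no promoter peak. The list thus spanned much of the scale of promoter strength.

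**Figure D5:**
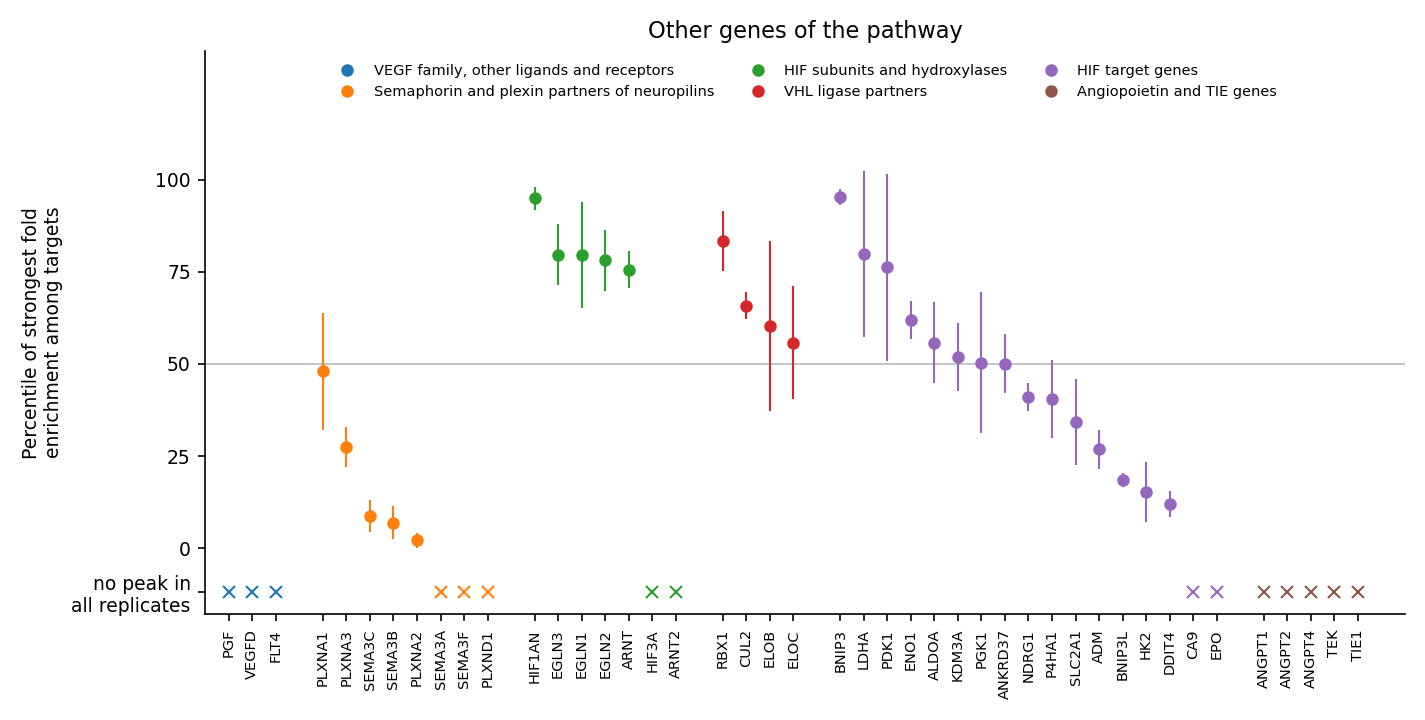
Mean percentile of the strongest fold enrichment among targets (vertical axis) for 44 other genes of the pathway, by list, with SD bars over 3 replicates. Crosses mark genes without a peak in all replicates; bound HIF subunit and hydroxylase genes lie between 75.6 and 94.9, and the angiopoietin and remaining VEGF family genes have no point.

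The labelled cell type was checked with marker genes, with the reservation that a promoter peak is no measure of expression. Of 7 melanocyte lineage genes, MITF, SOX10 and PMEL were bound, at mean percentiles of 65.3 ± 10.3, 6.60 ± 4.36 and 83.6 ± 1.77. TYR, MLANA, DCT and TYRP1, which have no CpG-island-like TSS, had no promoter peak. Sharing of peaks with neighbouring genes was examined for the members only, so a marker peak may belong to a neighbour. Of 6 endothelial genes found in the annotation (CDH5, VWF, TIE1, TEK, CLDN5 and ESAM), 0 had a promoter peak in any replicate. Of these 6, only CLDN5 and ESAM have a CpG-island-like TSS, as KDR and FLT1 do, and the shares bound over the genome were 79.5% with such a TSS and 9.59% without. TIE1 and TEK are counted in the angiopoietin and TIE list as well, and PECAM1 was not analysed here.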

How the data were processed

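PHF8 ChIP-seq of SKMEL-147 cells was analysed from the peak lists of 3 replicates. The authors used Bowtie2 with default parameters to map reads to hg19, and MACS in its narrow mode to call peaks over input in each replicate alone. Picard and bcl2fastq are named in the submitters' processing notes, and versions and the handling of duplicates are not given in the sources used here. Fold enrichment was deposited as a linear ratio of ChIP over background at the summit. The p-value and q-value were deposited as −log10 values. The deposited score was not used, and the deposited summit offset gave summit positions. The lists were used as deposited, with fold enrichment of at least 2.42, 2.07 and 2.47 and q-values of at most 0.0454, 0.0482 and 0.0375 in A, B1 and B2.

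Every transcript start of GENCODE release 44 lifted to GRCh37, the build of the peak files, was used once per gene and position, without the Y copies of the pseudoautosomal regions. The coordinates fitted that build, with 0 peaks beyond the end of a chromosome. Overlaps, percentiles (mid-ranks within a replicate), base composition and sequences were computed in Python 3.11.15 with pandas 2.3.3, scipy 1.17.1 and pysam 0.24.0. Fragments at a summit were the whole number n that, with the background, gives (n + 1) over (background + 1) as fold enrichment and also matches the deposited p-value, taken as Poisson. A whole number was found for 100% of peaks within 0.001 on the −log10 scale. The procedure was tested on simulated data. No amplified copies were removed here, and whether they were removed before peak calling is not known, so intervals cover counting error only.

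The members and gene lists were chosen with earlier results of these data known. The text names all 10 members, genes sharing a member's peak and, of each further list, the genes without a peak in all replicates and the strongest and weakest bound gene. The prolyl hydroxylase genes and ADM were added after their values were seen. Alternatives were stricter limits (q-values below 0.001 or enrichment above 4), windows of 500 bp and 2 kb, the summit in the window, other choices of TSS, a peak in at least 2 replicates, other ranked measures and leaving out each replicate. RefSeq tables of another build were not used, and 1 gene of a list and 1 promoter sequence are not reported here.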

Additional observations from a re-analysis of the deposited data

How the results depend on the processing

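The number of members bound was 8 under every alternative run except the 5′ end of the gene record, where it was 7 because EPAS1 starts there without a peak. It was 8 without any 1 replicate. The number of member TSSs bound ran from 37 with the summit in the window to 43 with a window of 2 kb, and from 40 to 41 when 1 replicate was left out. With fewer TSSs counted it was 32 of 43 for protein-coding transcripts and 30 of 34 for basic transcripts. The median percentile of the bound members, 21.9, was 19.9 with recovered fragments, 20.3 with −log10 q-values, 19.6 with protein-coding targets as the scale, and 22.1 to 25.4 when 1 replicate was left out. The cause was not tested. The percentile of VEGFA was 27.8 without replicate A, against 20.3. Of the regions away from TSSs, 1 of 2 remained at a fold enrichment above 4 and 1 at a q-value below 0.001. The NRP2 region missed the enrichment limit in A (3.53) and B1 (3.94) and the q-value limit in A. Both regions were kept when any 1 replicate was left out. The other pathway genes numbered 26 to 31 of 44 bound. The percentile of NRP2, 51.7, fell below that of the median target with recovered fragments (42.7), with protein-coding targets as the scale (49.4) and without replicate A (47.4). No other mean percentile crossed 50 under the alternatives run. Weaker binding than the called minimum and the identity of the gene behind a shared peak cannot be settled at this depth or from these lists.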
